A study of Homo sapiens with 6 samples.

Results

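Transcripts of 10 genes, most encoding proteins that anchor microtubules at the cell cortex, were followed in AGS, an established human gastric carcinoma cell line. Treated cells were given celecoxib, an inhibitor of the prostaglandin-producing enzyme cyclooxygenase-2. The genes were PHLDB2 and its paralog PHLDB1, ERC1, PPFIA1, PPFIBP1, CLASP1, CLASP2, KANK1, KANK2 and DPYSL3. DPYSL3 was included because an earlier comparison of these arrays had called it lower, not as a part of the cortical complex. For each symbol, the transcript cluster annotated with that symbol alone was used (the one with the highest mean over the arrays, where there were several), which gave 9 of the 10 genes a value, among 18417 genes with a single symbol. Each of the 9 had 1 such cluster. The only cluster of PPFIBP1 carries a second symbol, and PPFIBP1 was not analysed here.

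Cells grew for 48 h, and the next 24 h passed with 20 µM celecoxib on the treated cells and no drug on the controls, with 3 arrays in each group. Both groups were AGS cells of stomach origin, and celecoxib came from a DMSO stock. The sources used here do not say whether DMSO was added to the controls, so the drug and its solvent cannot be told apart. The labels call the arrays biological replicates but mention that samples were pooled, so the spread between arrays may be technical. All values are log2 expression, where a step of 1 is a doubling. Probes of different genes differ in response, so values are compared between arrays for the same gene and not between genes.

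PHLDB2 and DPYSL3 were selected on the measured values themselves, since an earlier comparison of the same arrays had called both lower with celecoxib, and the cluster of each gene was chosen by its mean level over the 6 arrays. Their differences are therefore given as a description, without a test. The other genes were listed for what their proteins do, with earlier results of these data already known.

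At the basal cortex, PHLDB1 and PHLDB2 (also called LL5-alpha and LL5-beta) bind phosphoinositides in the plasma membrane through a pleckstrin homology domain and, with ERC1 and the liprins PPFIA1 and PPFIBP1, form flat patches around integrin adhesions. The patches hold CLASP1 and CLASP2, which bind the growing ends of microtubules, and KANK proteins link them to talin in the adhesion. Microtubules captured there deliver secretory carriers and take part in the turnover of adhesions. DPYSL3 (CRMP4) is a tubulin- and actin-binding protein of the collapsin response mediator family, known mostly from growing neurons.

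The array cluster of a gene is read as 1 value whichever start site its transcripts use. PHLDB2 and DPYSL3 are the members whose values differed most, and both have more than 1 annotated start, so the 250 bases before their first and second starts are shown. They are from RefSeq (GRCh38.p14), written 5′ to 3′ on the gene's strand. The TEAD element (GGAATG or CATTCC) and the CArG box of SRF were searched on both strands, and a match is in capitals.
PHLDB2 first start, chr3:111732246-111732495, plus strand: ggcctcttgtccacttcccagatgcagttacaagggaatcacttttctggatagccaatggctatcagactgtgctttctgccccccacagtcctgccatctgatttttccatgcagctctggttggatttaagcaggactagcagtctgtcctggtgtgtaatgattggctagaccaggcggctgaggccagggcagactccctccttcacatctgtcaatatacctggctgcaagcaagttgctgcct
PHLDB2 second start, chr3:111858930-111859179, plus strand: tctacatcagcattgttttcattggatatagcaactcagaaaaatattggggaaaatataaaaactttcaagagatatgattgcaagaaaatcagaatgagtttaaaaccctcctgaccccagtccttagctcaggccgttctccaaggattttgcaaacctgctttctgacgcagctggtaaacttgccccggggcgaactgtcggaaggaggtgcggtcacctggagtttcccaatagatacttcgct
DPYSL3 first start, chr5:147510069-147510318, minus strand: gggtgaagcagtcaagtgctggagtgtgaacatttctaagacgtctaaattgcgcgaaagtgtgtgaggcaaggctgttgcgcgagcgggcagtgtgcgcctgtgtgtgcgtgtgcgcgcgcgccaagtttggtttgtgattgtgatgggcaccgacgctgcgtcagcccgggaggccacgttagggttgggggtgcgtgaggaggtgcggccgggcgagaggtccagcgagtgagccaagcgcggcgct
DPYSL3 second start, chr5:147453693-147453942, minus strand: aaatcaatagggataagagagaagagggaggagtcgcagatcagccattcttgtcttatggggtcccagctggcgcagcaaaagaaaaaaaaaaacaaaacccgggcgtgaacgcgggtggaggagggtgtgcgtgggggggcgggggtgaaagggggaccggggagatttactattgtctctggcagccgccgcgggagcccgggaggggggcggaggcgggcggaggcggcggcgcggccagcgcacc
KANK1 most downstream start, chr9:707004-707033, plus strand: ttaagaaaacagGGAATGcggaacagctga

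The second start of PHLDB2 lies 126684 bases after the first, and its remaining starts 126769 and 127331 bases after it. The windows shown hold 52% and 44% G and C in PHLDB2. In DPYSL3, where the starts are 56376 bases apart, they hold 62.8% and 63.6%. Neither motif was found in the 4 windows of PHLDB2 or the 2 of DPYSL3. Among all 21 windows of the 10 genes, 2 held a TEAD element, the KANK1 window shown in part, with the match 37 to 32 bases before the start, and the window of PPFIBP1. No window of the 10 genes held a CArG box. Of all 35114 promoter windows of this length, 11.9% held a TEAD element and 1.16% a CArG box.

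The array medians lay between 6.75 and 6.82, at 6.75, 6.78 and 6.79 with celecoxib and at 6.81, 6.82 and 6.80 in the controls. Every celecoxib median was thus slightly below every control median. With the array medians subtracted, PHLDB2 differed by -0.63, DPYSL3 by -0.56, CLASP1 by 0.07 and CLASP2 by 0.07. Celecoxib replicate 1 lay furthest out on the first principal component, which held 40.4% of the variance. It also had the highest median of small nuclear and nucleolar RNA, at 7.49. The other celecoxib arrays stood at 7.21 and 7.17, and the controls at 7.11, 6.98 and 7.13. This median was higher on every celecoxib array than on any control. A fit with it as a covariate therefore cannot separate small RNA from the treatment. Celecoxib replicate 1 was the lowest of the 3 celecoxib arrays for all 7 members other than PHLDB2 and DPYSL3. Over all genes it was the lowest of the 3 in 33.2%. The difference without this array is given beside each member, and leaving out the lowest celecoxib array can only raise a difference. Control replicate 3 was the lowest control for 5 of these 7 members, and over all genes in 35.7%. All 8 epithelial markers looked up, among them EPCAM and KRT8, were above 6.79, the median of all clusters. Their mean lay at 10.2 on each celecoxib array and between 10.3 and 10.4 on the controls. Within the list, VIL1 differed by -0.47 and KRT18 by -0.21, both without overlap of the groups, EPCAM by 0.0037, and 0 of the 8 were called. Of markers of other cell types, 1 of 6 fibroblast (COL1A1), 0 of 4 endothelial, 1 of 4 leukocyte (CD68) and 0 of 5 neuronal markers were above that median.

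PHLDB2 was lower on every celecoxib array than on any control. Its values were 9.59, 9.39 and 9.48 with celecoxib and 10.10, 10.12 and 10.25 in the controls. The highest celecoxib array stood 0.51 below the lowest control. The means were 9.49 ± 0.10 and 10.16 ± 0.08 (SD, n = 3 each), a difference of -0.67 ± 0.08 on the log2 scale (SE) with a 95% interval from -0.86 to -0.48, or 1.59-fold lower with celecoxib. Of all genes, 0.0706% had a lower difference. In bulk RNA, fewer cells with a transcript and less of it per cell cannot be told apart. Celecoxib replicate 1 was the highest of the celecoxib arrays here, and without it the difference was -0.72.

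PHLDB1, the paralog of PHLDB2, stood at 6.60, 6.90 and 6.90 with celecoxib and at 6.95, 7.01 and 6.91 in the controls. The groups did not overlap, but only 0.0094 lay between them, and celecoxib replicate 1 was far below the other celecoxib arrays. The difference was -0.16 ± 0.10 (SE), with an interval from -0.38 to 0.06, and did not pass the test over all genes (limma adjusted p = 0.550). Without celecoxib replicate 1 it was -0.06, and with each array left out in turn it ran from -0.21 to -0.06. With the level of small RNA as a covariate, which cannot be separated from the treatment, it was 0.05.

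The scaffold partners of the PHLDB proteins that had a value, ERC1 and PPFIA1, overlapped between the groups. ERC1 (ELKS), a coiled-coil protein of the patches that also takes part in vesicle docking, read 8.59, 8.75 and 8.70 with celecoxib and 8.65, 8.69 and 8.69 in the controls. The control values lay inside the range of the celecoxib values. The difference was 0.01 ± 0.07 (SE), with an interval from -0.16 to 0.17 (limma adjusted p = 0.978), and 0.05 without celecoxib replicate 1. PPFIA1 (liprin-alpha-1), which organises the patches at the cell edge, read 9.22, 9.47 and 9.34 with celecoxib and 9.28, 9.25 and 9.15 in the controls. Of its celecoxib arrays, 2 were above every control and 1 was below the highest control. The difference was 0.11 ± 0.08 (interval -0.08 to 0.31, limma adjusted p = 0.612), and 0.18 without celecoxib replicate 1. With each array left out in turn it ran from 0.05 to 0.18.

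The CLASP genes, whose proteins bind and stabilise microtubule ends at the patches, overlapped between the groups. CLASP1 read 9.50, 9.76 and 9.73 with celecoxib and 9.69, 9.64 and 9.56 in the controls. CLASP2 read 9.78, 9.95 and 9.90 with celecoxib and 9.96, 9.88 and 9.68 in the controls. The lowest value of CLASP1 was a celecoxib array, and the lowest of CLASP2 a control. The difference was 0.03 ± 0.09 (SE) for CLASP1, with an interval from -0.17 to 0.23 (limma adjusted p = 0.903). For CLASP2 it was 0.04 ± 0.09, with an interval from -0.17 to 0.25 (limma adjusted p = 0.893). The sign of both depended on the arrays used. Without control replicate 3 the differences were -0.0016 for CLASP1 and -0.043 for CLASP2, and without celecoxib replicate 1 they were 0.11 and 0.08.

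KANK1 and KANK2 encode the adaptors between talin and the patches. KANK2 stood at 7.45, 7.73 and 7.65 with celecoxib and at 7.67, 7.90 and 7.84 in the controls. The groups overlapped, as celecoxib replicate 2 was above control replicate 1. The difference was -0.19 ± 0.10 (SE), with an interval from -0.42 to 0.03 (limma adjusted p = 0.489, the smallest among the 7 members other than PHLDB2 and DPYSL3). It was -0.11 without celecoxib replicate 1. KANK1 stood at 7.03, 7.25 and 7.22 with celecoxib and at 7.28, 7.39 and 7.10 in the controls, with a difference of -0.09 ± 0.10 (interval -0.32 to 0.13, limma adjusted p = 0.735). Celecoxib replicate 1 was again the lowest array of both genes, and without it the difference of KANK1 was -0.02. With each array left out in turn, KANK1 ran from -0.17 to -0.02 and KANK2 from -0.26 to -0.11. With small RNA as a covariate, KANK2 differed by -0.02 and KANK1 by 0.09. The same covariate put ERC1 at 0.09, PPFIA1 at 0.23, CLASP1 at 0.18 and CLASP2 at 0.14, each further above 0 than without it. Small RNA was higher on every celecoxib array, so these values cannot separate it from the treatment. PHLDB2 stood at -0.78 and DPYSL3 at -0.60 with the covariate.

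**Figure D1:**
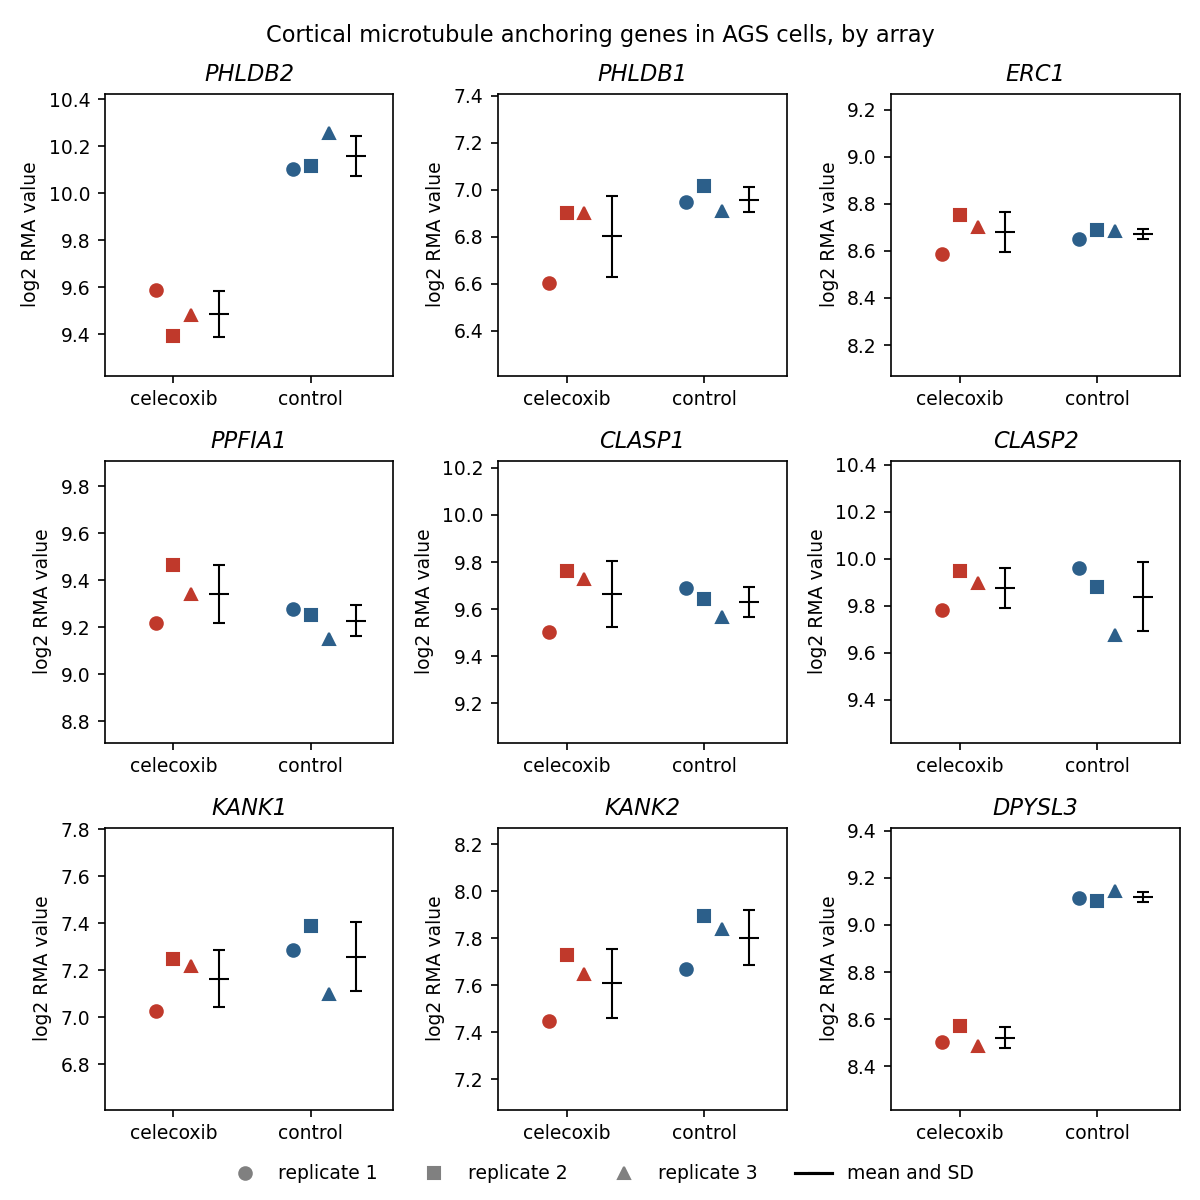
Log2 RMA values of the 9 genes (y axis, the same span in each panel) on the 3 celecoxib and 3 control arrays, with the mean and SD beside each group. PHLDB2 and DPYSL3 have celecoxib values well below all controls, PHLDB1 is split by 0.0094 only, and the other 6 genes overlap.

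DPYSL3 was lower on every celecoxib array than on any control. Its values were 8.50, 8.57 and 8.49 with celecoxib and 9.11, 9.10 and 9.14 in the controls. The gap between the highest celecoxib array and the lowest control was 0.53. The means were 8.52 ± 0.05 and 9.12 ± 0.02 (SD, n = 3 each), a difference of -0.60 ± 0.07 (SE) with an interval from -0.75 to -0.45, or 1.51-fold lower with celecoxib. Without celecoxib replicate 1 it was -0.59. The mean of the 5 neuronal markers lay between 5.46 and 5.60 with celecoxib and between 5.63 and 5.75 in the controls. Among them MAP2 differed by -0.42, SYT1 by -0.02 and ELAVL4 by 0.12, and 0 of the 5 were called. The mean of the epithelial markers, given above, was also lower on every celecoxib array. The part of either marker list in the DPYSL3 and PHLDB2 results was not tested.

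Of the 9 members, 5 had negative and 4 positive differences, with a median of -0.09, beside -0.01 over all genes. Leaving out PHLDB2 and DPYSL3, 3 of 7 were negative and the median was 0.01. Across all genes, 0.141% were called at an adjusted p of 0.05, 0.0652% lower and 0.076% higher. Among the members, PHLDB2 and DPYSL3 were called lower, which is how they came to be chosen, and 0 of the other 7 were called by limma, also 0 at an unadjusted p under 0.05 (11.3% of all genes). The groups did not overlap with lower celecoxib values in 1 of these 7, PHLDB1, and in 7.95% of all genes.

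**Figure D2:**
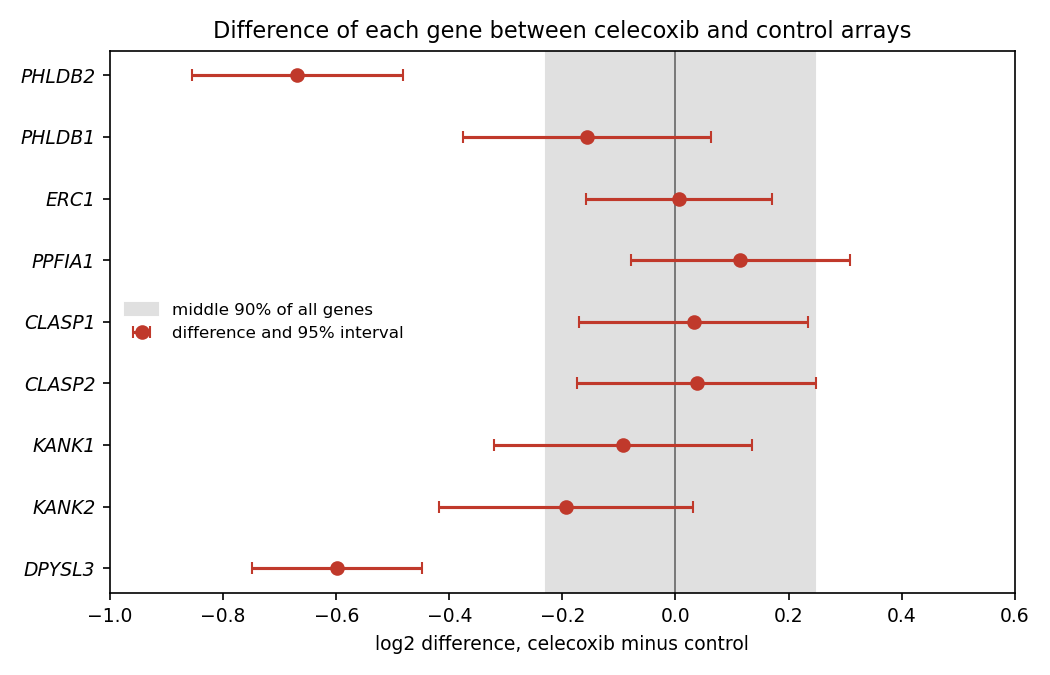
Log2 difference, celecoxib minus control (x axis), with its 95% interval for each of the 9 genes; the grey band spans the middle 90% of all genes (-0.23 to 0.25). PHLDB2 at -0.67 and DPYSL3 at -0.60 lie left of the band, and the intervals of the other 7 genes include 0. PHLDB2 and DPYSL3 were selected on these values, which their intervals do not take into account.

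Other genes of the pathway were read in 5 lists of 54 genes, of which 51 had a value. Limma called 0 of the 51 (0.141% of all genes), and 7 had an unadjusted p under 0.05 (11.3% of all genes). The median difference was -0.07, with 36 negative and 15 positive (52.1% of all genes were negative). The groups did not overlap in 14 of the 51 (27.5%), 9 lower and 5 higher. Of all genes, 19% did not overlap, 7.95% lower and 11.1% higher. Celecoxib replicate 1 was the lowest celecoxib array in 23 of the 51. The part of this array in the excess of negative values was not tested.

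In the list of paralogs and direct partners, 9 of 12 had negative differences and 0 were called (median -0.08). KIF21B, a kinesin that limits microtubule growth, differed by -0.16 ± 0.08 (SE, limma adjusted p = 0.459). It was -0.11 without celecoxib replicate 1 and -0.05 with small RNA as a covariate, which cannot be separated from the treatment. Its relative KIF21A, which KANK1 recruits to the patches, differed by 0.12 ± 0.07 (limma adjusted p = 0.530), and by 0.15 with that covariate. The groups of both kinesins did not overlap.

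Among 17 plus-end proteins and spectraplakins, 9 differences were negative and 0 genes were called (median -0.03). NAV2, a neuron navigator protein that binds microtubules, read 7.74, 7.74 and 7.64 with celecoxib and 8.17, 8.27 and 8.17 in the controls. All 3 celecoxib arrays lay below every control. The difference of -0.50 ± 0.07 (SE) just missed the threshold (limma adjusted p = 0.0546), and it passed in 7 of 19 alternative settings. MAPRE3 (EB3), a protein that tracks growing microtubule ends, read 6.89, 7.03 and 7.02 with celecoxib and 6.64, 6.63 and 6.79 in the controls. It was higher on every celecoxib array, by 0.29 ± 0.08 on average (limma adjusted p = 0.279).

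The list of adhesion-site genes had 11 measured of 14, with 8 negative differences and 0 called (median -0.09). VCL, encoding vinculin, which couples talin to actin, read 9.33, 9.52 and 9.43 with celecoxib and 9.93, 9.97 and 9.80 in the controls. No celecoxib array reached the lowest control. Its difference was -0.48 ± 0.08 (SE, limma adjusted p = 0.0937), and it passed in 4 of 19 alternative settings. UTRN, encoding utrophin, which links dystroglycan to actin, differed by 0.21 ± 0.07 (limma adjusted p = 0.329), again with no overlap.

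The relatives of DPYSL3 in the CRMP family stayed within 0.07 of their control means, and 0 of 4 were called. DPYSL5 differed by -0.07 ± 0.07 (SE, limma adjusted p = 0.716), and DPYSL4 by -0.02 ± 0.07 (limma adjusted p = 0.935). Without control replicate 3, DPYSL5 stood at -0.04 and DPYSL4 at 0.02. Of 7 genes of carriers that dock at the patches, 6 had negative differences and 0 were called (median -0.08). RAB6B, a GTPase of Golgi-derived carriers, differed by -0.15 ± 0.07 and the dynein adaptor BICD2 by -0.11 ± 0.07 (limma adjusted p = 0.467 and 0.556).

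**Figure D3:**
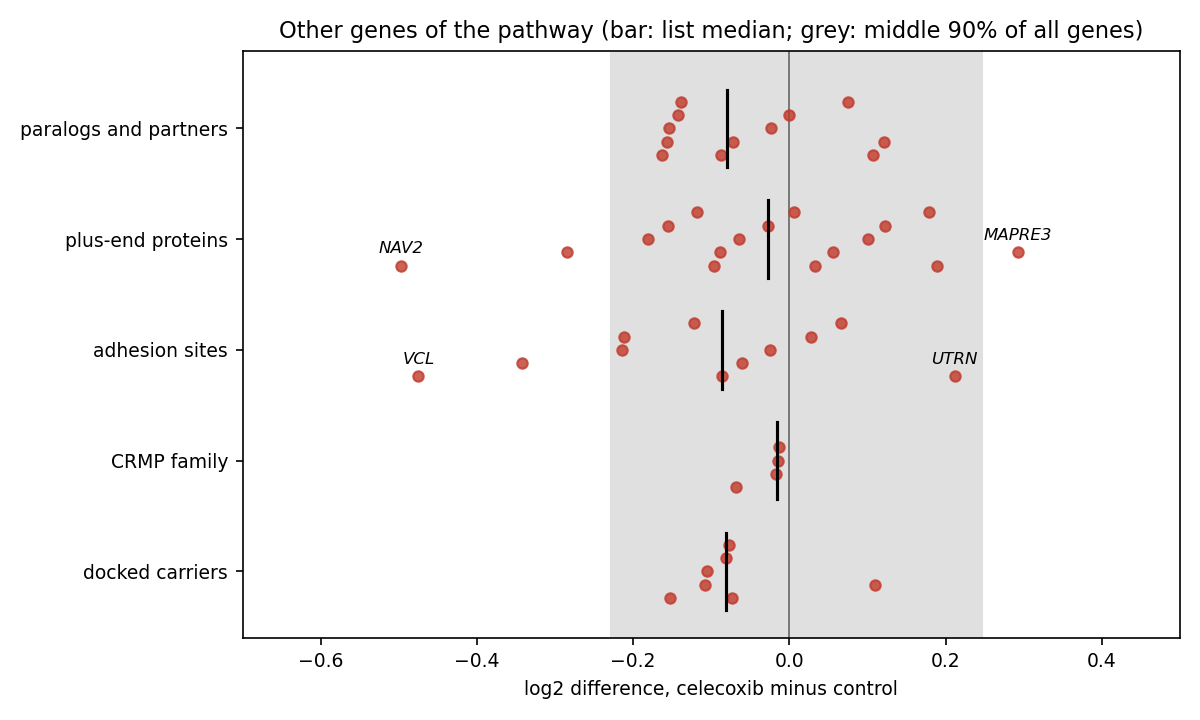
Log2 difference, celecoxib minus control (x axis), of the 51 measured genes in the 5 lists (rows; 1 point per gene, black bar for the list's median); the grey band spans the middle 90% of all genes. NAV2 at -0.50 and VCL at -0.48 lie furthest left, and MAPRE3 at 0.29 furthest right.

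The genes whose values over the 6 arrays were most like those of PHLDB2 were found by Pearson's r among the 2541 genes with an SD of at least 0.2. Since the arrays fall into celecoxib and control for PHLDB2, a high r chiefly orders genes that share this split, and it is given as a description. The 5 closest were ANKRD1 (r = 0.989), SOCS2 (0.986), FSTL3 (0.984), EDN1 (0.983) and MMP24 (0.982). DPYSL3 had r = 0.967 and the other 7 members lay between -0.74 (PPFIA1) and 0.58 (KANK2).

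ANKRD1, a cardiac ankyrin repeat protein gene, read 10.03, 9.75 and 9.80 with celecoxib and 10.40, 10.36 and 10.56 in the controls. As in PHLDB2, celecoxib replicate 1 was the highest celecoxib array and control replicate 3 the highest of all. SOCS2, a suppressor of cytokine signalling, differed by -0.43 and MMP24, a membrane-bound metalloproteinase, by -0.45. FSTL3, an activin-binding protein, differed by -0.50 and EDN1, the endothelin-1 precursor, by -1.08. In all 5 genes the celecoxib values lay below the control values.

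**Figure D4:**
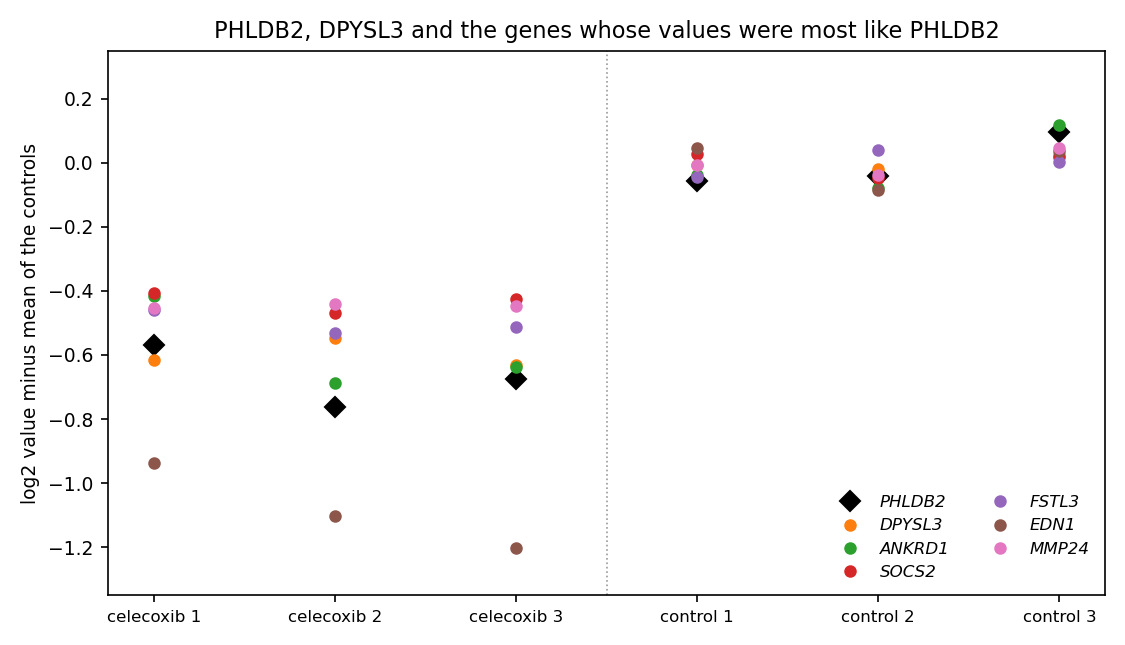
Log2 value minus the mean of the 3 controls (y axis) on each array (x axis; celecoxib left of the dotted line, control right) for PHLDB2 (black diamonds), DPYSL3 and the 5 genes most like PHLDB2. All 7 genes lie below 0 on the celecoxib arrays, EDN1 lowest, with a mean of -1.08.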

How the data were processed

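The deposited log2 values are RMA values from Affymetrix Expression Console 1.1, per the submitters' processing notes. RMA corrects background, quantile-normalizes the arrays and summarises probes. Its settings, the slides and the scan dates are not stated here, so batches were not tested. Scanner files were not used, and background was not measured per gene. The number of arrays limits the precision. The table has 33297 transcript clusters from 250 ng of RNA per array. Of these, 19460 had 1 symbol in the platform annotation, and the cluster with the highest mean stood for a gene.

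Celecoxib and control arrays, grouped by title, were compared in limma 3.58.1 (lmFit, eBayes; R 4.3.3), two-sided, with Benjamini-Hochberg adjustment over 18417 genes and a threshold of 0.05. Intervals are 95%. Members and lists were chosen with earlier results of these data known. Named from each list were genes past the threshold and the 2 with the smallest p; 1 further list is not reported here. On 5 simulated sets with 200 changed genes, the fit recovered 52.9% of genes changed by 0.5 and 91.5% of genes changed by 1 (log2). Smaller sizes were not simulated. The recovered share depends on how many genes change, and the real arrays gave 26 called genes, so these shares may not carry over. Alternatives were other cluster summaries, dim-gene filters, normalizations and variance priors, a replicate block, array weights and leaving out arrays. A covariate for small RNA (195 genes) and a test of all clusters were added after seeing the data. Promoters were read from RefSeq, and protein sequences were not used here. Figures were drawn with matplotlib 3.10.9.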

Additional observations from a re-analysis of the deposited data

How the results depend on the processing

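PHLDB2 and DPYSL3 were chosen for lower values on these same arrays, so a kept sign is a description only. PHLDB2 had a negative difference in all 19 alternatives, from -0.78 to -0.62, and DPYSL3 from -0.63 to -0.56. For both genes, the cluster summaries, dim-gene filters, variance priors, replicate block and test of all clusters left the difference itself unchanged. Those settings altered only the variance or the set of genes tested, so the sign could not change there. PHLDB2 and DPYSL3 each passed the threshold in 10 of the 19. Of 454 pairs of a named gene and an alternative, 438 kept their direction. The settings that left the difference unchanged could not reverse it in the other named genes either. Many of these genes were also named for their values on these arrays, so the count is a description only. The genes called, 26 of all, were 76 above the median signal, 59 without the dimmest 20%, 44 with quantile normalization repeated, 42 with cyclic loess, 69 with an intensity trend, also with a robust prior, and 177 with array weights. They were 1 with the small RNA covariate and 0 with all clusters tested together (limma; 2551 at an unadjusted p under 0.05). Leaving out an array gave 0 to 5 calls over all genes, of which 1293 to 2353 had an unadjusted p under 0.05. Among the members it gave 0 calls. Members called were 0, in place of 2, with the covariate and with all clusters together. With the replicate number as a block, limma called 0 genes and 0 members (2448 genes at an unadjusted p under 0.05). Deviations of same-numbered arrays correlated at -0.02, 0.49 and 0.01, and celecoxib 1 correlated best with control 3 (0.41), so the numbers were not taken as pairs.

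Reversed signs, all in uncalled genes, were as follows. With cyclic loess CLASP1 stood at -0.0037, ERC1 at -0.024 and DPYSL4 at 0.0032. With repeated quantile normalization ERC1 stood at -0.0074 and DPYSL4 at 0.0011, and with array medians subtracted DPYSL4 at 0.019. With array weights CLASP2 stood at -0.033. With the covariate PHLDB1 and KANK1 stood at 0.047 and 0.091. Leaving out single arrays, CLASP1 ran between -0.017 and 0.11, CLASP2 between -0.043 and 0.098, ERC1 between -0.028 and 0.054, and DPYSL4 between -0.055 and 0.020. The causes were not tested.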
